A study of Mus musculus with 12 samples.

Results

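Disallowed genes, which mature β cells keep silent, were examined for the promoter mark H3K4me3 and for nearby cJun binding. The members, chosen by name, were Ldha, Slc16a1, Hk1, Acot7, Oat, Pdgfra, Igfbp4, Cxcl12, Maf and Smad3, which are 10 of 21728 protein-coding genes, and every peak within 50 kb of their gene bodies was collected. The windows held 25 of 19372 H3K4me3 peaks in DMSO and 23 of 19032 in JNKi, with 5 of 4960 cJun peaks in DMSO and 1 of 1632 in JNKi. The measurements came from CUT&RUN, which releases DNA next to an antibody-tethered nuclease, in Min6 cells, a mouse insulinoma line that stands in for β cells and is a dividing tumour line rather than a mature islet cell. Cultures received DMSO, the solvent control, or the cJun N-terminal kinase inhibitor SP600125 (JNKi) at 20 µM, each for 48 hours, with no other agent or genetic change given. IgG, cJun and H3K4me3 antibodies in both treatments made 6 groups of 2 biological replicates, or 12 samples, and the 4 peak lists analysed here pair the replicates of each cJun or H3K4me3 group. The labels state the same nominal sequencing depth for every sample, but the reads that remained behind each list are not known from the peak files.

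Most tissues use the enzymes and signalling proteins that these genes encode, but the mature β cell represses them. Lactate dehydrogenase A and the monocarboxylate transporter MCT1 would divert pyruvate to lactate or let circulating pyruvate and lactate trigger insulin release, and a hexokinase with high affinity would blunt glucose sensing. Dedifferentiating or stressed β cells are known to regain expression of such genes. H3K4me3 is a histone mark laid down at active and poised promoters, most readily at those rich in CpG dinucleotides. No RNA was measured in these samples, so the mark is described here and not expression.

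Promoter sequences of 4 members are shown because they span the range of CpG content and hold the only motif match found. They are RefSeq sequences on GRCm38.p6 from 250 bases before to 50 after a gene start, available within 500 bp of the marked start for 8 of the 10 members. CG dinucleotides are in capitals for Slc16a1, with 42 of them, Cxcl12, with 20, and Pdgfra, with 5, whereas the median over all 32851 promoters was 7. In Ldha, which has 30 CG dinucleotides, the capitals mark a cyclic AMP response element instead.
Slc16a1, chr3:104638414-104638713, plus strand: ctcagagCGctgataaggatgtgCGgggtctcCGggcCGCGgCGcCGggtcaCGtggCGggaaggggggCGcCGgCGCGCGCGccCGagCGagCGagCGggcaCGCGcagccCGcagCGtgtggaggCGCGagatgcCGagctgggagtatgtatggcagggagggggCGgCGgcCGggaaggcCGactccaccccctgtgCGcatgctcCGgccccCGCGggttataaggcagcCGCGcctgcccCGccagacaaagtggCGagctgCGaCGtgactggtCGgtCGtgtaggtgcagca
Cxcl12, chr6:117168285-117168584, plus strand: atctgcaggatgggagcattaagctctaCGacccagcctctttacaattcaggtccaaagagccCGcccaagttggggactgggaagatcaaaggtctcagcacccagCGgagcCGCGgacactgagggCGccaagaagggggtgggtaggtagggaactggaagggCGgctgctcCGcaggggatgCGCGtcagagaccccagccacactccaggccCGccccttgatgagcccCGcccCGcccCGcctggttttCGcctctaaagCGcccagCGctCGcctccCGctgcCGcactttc
Pdgfra, chr5:75152001-75152300, plus strand: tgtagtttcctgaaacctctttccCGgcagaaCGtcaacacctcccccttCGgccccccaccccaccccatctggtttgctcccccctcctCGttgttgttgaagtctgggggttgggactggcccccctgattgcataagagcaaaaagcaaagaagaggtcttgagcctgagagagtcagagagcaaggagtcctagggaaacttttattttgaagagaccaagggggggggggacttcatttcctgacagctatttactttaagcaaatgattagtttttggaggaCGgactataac
Ldha, chr7:46845554-46845853, plus strand: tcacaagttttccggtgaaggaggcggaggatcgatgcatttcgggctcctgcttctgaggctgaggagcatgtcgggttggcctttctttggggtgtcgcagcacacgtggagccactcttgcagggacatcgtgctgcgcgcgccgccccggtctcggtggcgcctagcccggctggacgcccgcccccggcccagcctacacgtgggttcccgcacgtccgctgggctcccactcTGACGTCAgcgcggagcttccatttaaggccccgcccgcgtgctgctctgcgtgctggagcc

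The element in Ldha, TGACGTCA, can be bound by dimers that contain Jun or CREB proteins, and it reads the same on both strands. It began 12 bases before the RefSeq start, at -12, and was present in 1 of 8 member promoters and in 1.79% of all promoters. The AP-1 site, TGACTCA or TGAGTCA on either strand, was in 0 of 8 member promoters and in 5.20% of all.

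At the promoters, H3K4me3 was present but weak. A promoter peak, defined as a peak within 500 bp of any annotated transcript start, was found at 9 of 10 members in DMSO and the same 9 in JNKi, where 58.8% and 58.2% of all coding genes had one. Pdgfra was the member without a peak. The −log10 p of each peak in each replicate, which the peak caller gives and which rises with enrichment over IgG and with depth, was used to place the members among all marked genes of the same replicate column. In each of the 4 columns, 9 of the 9 marked members lay below the median of all marked genes. The medians of the members were 84.2 and 70.4 in the DMSO columns, where all marked genes had medians of 271 and 226. In the JNKi columns they were 112 and 69.8, where all marked genes had 320 and 261. Expressed as percentiles, the median member stood at 16.5 and 16.8 in DMSO and at 15.5 and 15.8 in JNKi. Columns within a list carry no replicate number and are given here as the first and the second.

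**Figure D1:**
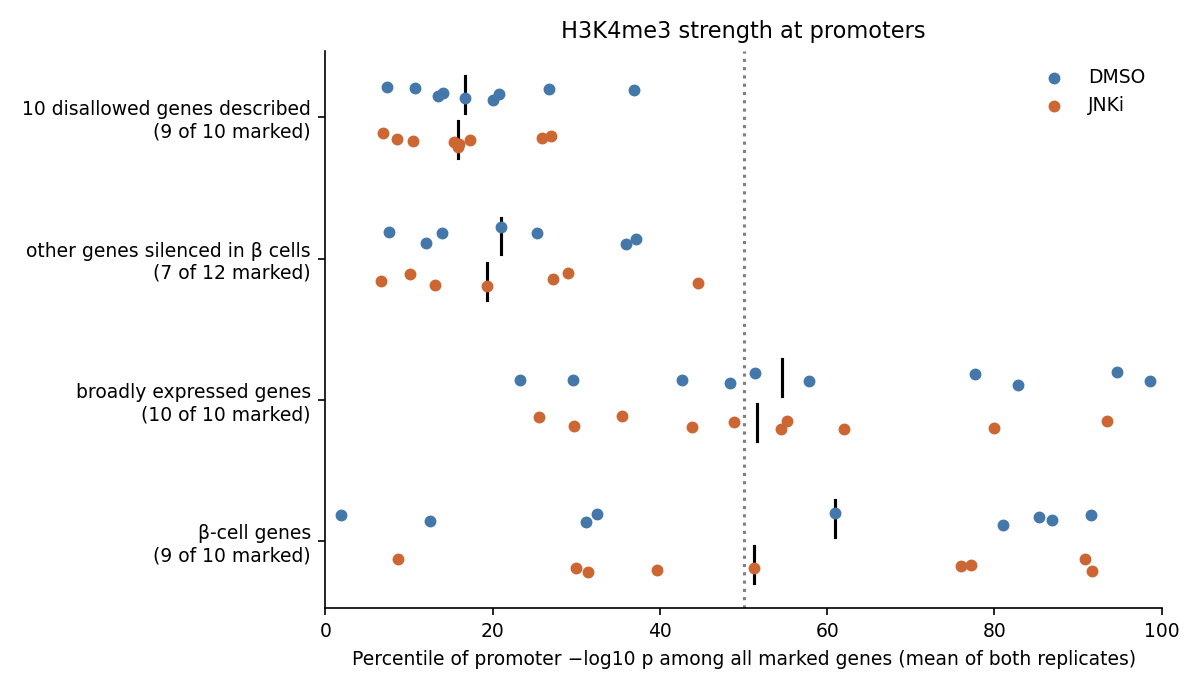
Percentile of the promoter H3K4me3 −log10 p among all marked genes (x axis, mean of both replicate columns) for 4 gene lists, with 1 point per marked gene, DMSO in blue and JNKi in orange, a black bar at each list's median and a dotted line at the 50th percentile. The disallowed genes have percentiles of 7.33 to 36.8 in DMSO and 6.93 to 27 in JNKi, while broadly expressed and β-cell genes spread over most of the scale.

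Among the metabolic members, Slc16a1 (ENSMUSG00000032902.1), which encodes MCT1, had the strongest mark in DMSO. Its peak at chr3:104637672-104640156 in DMSO had a −log10 p of 216 and 167, and the JNKi peak at chr3:104637702-104640081 had 194 and 139. It covered the only annotated start and reached 1488 bp into the gene, with its midpoint in an intron. Slc16a1 stood highest among the members in both DMSO columns, at percentiles of 38.3 and 35.4, while in JNKi, at 26.2 and 25.6, it came just below Maf.

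Ldha (ENSMUSG00000063229.15), which converts pyruvate to lactate, had the weakest. The DMSO peak at chr7:46845571-46846833 had a −log10 p of 15.1 and 29.4, and the JNKi peak at chr7:46845575-46847163 had 30.2 and 18.6. The values of the treatments interleaved, and the percentiles ranged from 5.28 to 9.38. The irreproducible discovery rate (IDR), an estimate of how likely a peak is to fail in a repeat, was 0.102 in DMSO and 0.00284 in JNKi. The marked start was internal, 4366 bp downstream of the 5′ end of the gene record, where a longer transcript begins without a peak.

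Hk1 (ENSMUSG00000037012.18), a hexokinase with high affinity for glucose, was also marked at an internal start. The DMSO peak at chr10:62338370-62341343 had a −log10 p of 103 and 95, and the JNKi peak at chr10:62338735-62341303 had 113 and 93.0. It lay at a start 39366 bp downstream of the 5′ end of the gene record, where RefSeq also places its promoter, and the same peak covered the start of the non-coding gene Hk1os. No H3K4me3 peak covered the upstream end of Hk1.

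Acot7 (ENSMUSG00000028937.14), which hydrolyses fatty acyl-CoA, had a peak at chr4:152177257-152179220 with a −log10 p of 70.3 and 50.1 in DMSO. The JNKi peak at chr4:152177349-152179161 had 99.5 and 84.9, so that both JNKi values lay above both DMSO values. Oat (ENSMUSG00000030934.9), the mitochondrial ornithine aminotransferase, had 41.3 and 35.0 at chr7:132575210-132576642 in DMSO and 60.3 and 33.1 at chr7:132575107-132576680 in JNKi. For Oat the JNKi replicates spanned those of DMSO.

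Of the secreted and signalling members, Cxcl12, Smad3 and Igfbp4 were marked and Pdgfra was not. Cxcl12 (ENSMUSG00000061353.11), the chemokine ligand of CXCR4, had a −log10 p of 92.0 and 113 at chr6:117167795-117169890 in DMSO and 115 and 69.8 at chr6:117167894-117169901 in JNKi. Smad3 (ENSMUSG00000032402.12), which carries TGF-β signals to the nucleus, had 84.2 and 70.4 at chr9:63756703-63758774 in DMSO and 112 and 65.9 at chr9:63756711-63758674 in JNKi. The JNKi values of both genes reached above and below their DMSO values.

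Igfbp4 (ENSMUSG00000017493.12) encodes a secreted protein that binds insulin-like growth factors. Its peak at chr11:99039697-99041492 had 69.8 and 43.3 in DMSO, and the JNKi peak at chr11:99039769-99041403 had 45.0 and 23.7. The ranges overlapped narrowly. Unlike the peaks of the other marked members, it lay mainly upstream, from 1547 bp before the start to 248 bp after it, and the DMSO summit was at -1151 bp relative to the start.

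Pdgfra (ENSMUSG00000029231.15; chr5:75152292-75198215), a platelet-derived growth factor receptor typical of mesenchymal cells, had no peak of any list within 50 kb. The nearest H3K4me3 peak was 107228 bp away in DMSO, at the promoter of Chic2 (chr5:75042481-75045064), and 107027 bp away in JNKi, at the same promoter. The nearest cJun peaks were 637252 bp and 1762256 bp away.

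**Figure D2:**
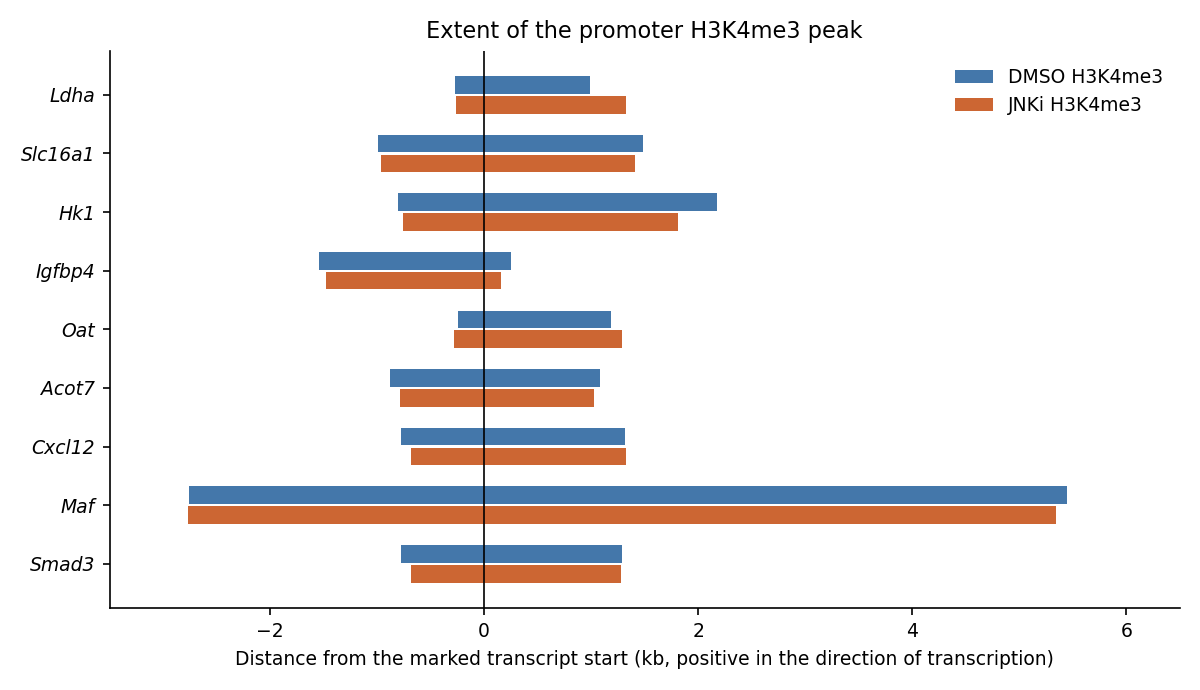
Extent of the promoter H3K4me3 peak of the 9 marked members as distance from the marked transcript start (x axis, kb, positive in the direction of transcription), with the DMSO list in blue and the JNKi list in orange. The Maf peak extends from 2756 bp before to 5450 bp after the start in DMSO, and the Igfbp4 peak lies mainly upstream.

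The transcription factor Maf (ENSMUSG00000055435.6), a relative of the β-cell activator Mafa, differed from the other members in breadth. Its DMSO peak at chr8:115701646-115709852 spanned 8207 bp and its JNKi peak at chr8:115701755-115709868 spanned 8114 bp, covering both annotated starts and the start of the non-coding gene Gm15655. The replicate widths were 7974 and 7922 bp in DMSO and 8025 and 8077 bp in JNKi, at percentiles of 99.4 to 99.5 of all marked genes. At least 8 kb, a limit chosen after the value was seen, was reached by 0.610% of marked genes in DMSO and 0.617% in JNKi. This breadth did not go with strength, since the −log10 p of 162 and 120 in DMSO and 197 and 148 in JNKi placed Maf at percentiles of 25.4 to 28.0. Mafa itself had a narrower peak of 6818 bp in DMSO with a −log10 p of 430 and 347, at percentiles of 82.7 and 79.3. The other 8 marked members had merged peaks of 1263 to 2974 bp in DMSO.

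Ordered by mean percentile over the 4 columns, the members ran Slc16a1, Maf, Hk1, Cxcl12, Smad3, Acot7, Igfbp4, Oat and Ldha. Neighbours in this order overlapped in their range over the columns except for Maf and Hk1, at 25.4 to 28.0 and 15.6 to 21.0, and for Oat and Ldha, at 10.4 to 10.8 and 5.28 to 9.38.

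The effect of JNK inhibition on the mark was tested gene by gene across the 12581 genes with a promoter peak in both lists, with limma on log2 values and Benjamini-Hochberg adjustment at 0.05. Widths passed as wider in JNKi at 0.795% of these genes and as narrower at 0.517%, and 0 of 9 members passed in either direction. By −log10 p, 0.0636% passed as higher and 0.0238% as lower, again with 0 of 9 members. At an unadjusted p of under 0.05, 1045 of the tested genes differed in width, Ldha and Hk1 among them, and 613 in −log10 p, among them Igfbp4, Slc16a1 and Acot7.

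The largest change of width among the members was at Ldha. Its replicate widths were 1240 and 1158 bp in DMSO and 1497 and 1569 bp in JNKi, with means of 1199 ± 58.0 bp and 1533 ± 50.9 bp (SD, n = 2). The replicates did not overlap, and the JNKi peak extended 1322 bp into the gene where the DMSO peak extended 992 bp. The log2 change was 0.35 (SE 0.07, 95% interval 0.18 to 0.53), or 27.9% wider, with an adjusted p of 0.158 from limma with Benjamini-Hochberg adjustment. Both JNKi widths lay above both DMSO widths at 20.7% of all tested genes, and among the members at Ldha and Maf, where the difference for Maf was 1.30%.

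Hk1 changed in the opposite direction. Its widths were 2828 and 2860 bp in DMSO and 2447 and 2569 bp in JNKi, a log2 change of -0.18 (SE 0.06, 95% interval -0.34 to -0.02) with a limma adjusted p of 0.505. Both JNKi widths lay below both DMSO widths at 15.1% of tested genes, and among the members at Hk1. The remaining 6 members had log2 width changes of -0.07 to 0.01 with limma adjusted p-values of at least 0.962. The median change over the 9 members was -0.03, and it was 0.01 over all genes.

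**Figure D3:**
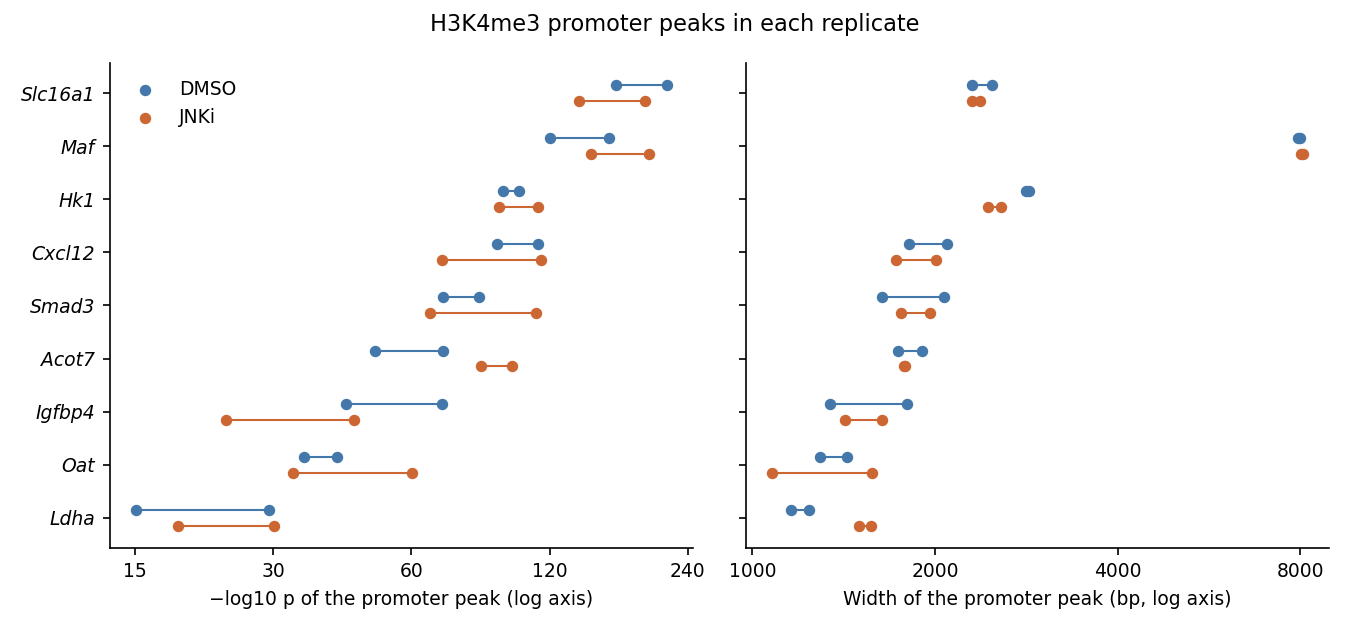
H3K4me3 −log10 p (left, log axis) and width in bp (right, log axis) of the promoter peak in each replicate column, with 1 point per column, a line joining the replicates of a treatment, DMSO in blue and JNKi in orange. The widths do not overlap between treatments for Ldha, Hk1 and Maf, and the −log10 p does not overlap for Acot7.

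By −log10 p, after each column was centred on its median, Igfbp4 had the largest change, a log2 change of -0.96 (SE 0.31, 95% interval -1.85 to -0.07) with a limma adjusted p of 0.833. Acot7 had 0.42 (SE 0.14) and Slc16a1 had -0.42 (SE 0.14), with the same adjusted p. Uncentred values of both JNKi columns exceeded both DMSO columns at 30.7% of tested genes, and among the members at Acot7. The reverse held at 4.90% of tested genes and at 0 members. The median change was -0.05 over the members and -0.04 over all genes. With 2 columns against 2, an exact permutation test of a single gene could not go below a p of 0.333. The width changes simulated to check the limma test were all larger than those of Ldha and Hk1, and none of the smallest was recovered. Changes of the size seen at Ldha and Hk1 were not simulated. The absence of a call therefore does not show the absence of a change.

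Reference lists placed these values. Of 12 further genes repressed in β cells, 7 were marked in each list, at a median percentile of 21.0 in DMSO and 19.4 in JNKi. They included Slc16a3, another monocarboxylate transporter, at percentiles of 10.2 and 17.6 in DMSO, and Ldhb, the other main lactate dehydrogenase subunit, at 25.7 and 24.9. The second hexokinase gene Hk2 and the growth regulator Yap1 had no promoter peak in either list, as was the case for Zfp36l1, Cd302 and Mgst1. All of 10 broadly expressed genes were marked, at median percentiles of 54.6 and 51.6, and 9 of 10 β-cell genes, at 61.0 and 51.2. Slc2a2, the glucose transporter of β cells, nevertheless stood at 12.6 and 12.5 in DMSO, within the range of the disallowed genes. At a few broad peaks the −log10 p was low or differed widely between replicates, and the cause was not tested. The DMSO peak of Pdx1, of 12246 bp, had 3.01 and 10.5, and its JNKi peak had 734 and 8.29. The JNKi median of 51.2 for the β-cell genes was the value of Pdx1 itself, the mean of percentiles of 99.1 and 3.34. In JNKi the percentiles of Neurod1 (78.2 and 1.13), Polr2a (70.2 and 0.680) and Eef2 (99.6 and 9.32) also differed widely. The JNKi medians of the β-cell and broadly expressed genes rest in part on such genes, so their lower values are not read as an effect of JNKi. None of 10 genes of unrelated lineages was marked. Of 4 α-cell genes, 3 were (Gcg, Irx1 and Irx2). The δ-cell, acinar, fibroblast, endothelial and immune markers had no promoter peak, and neither did Ins1 among the β-cell genes.

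The CpG content of the member promoters was then compared with their mark. The ratio of observed to expected CpG within 500 bp of the start was 0.803 at the median of the 9 marked members, close to the 0.744 of all marked genes, and 0.197 at the median of unmarked genes. Slc16a1, Oat, Acot7, Cxcl12, Maf and Smad3, with ratios of 0.789 to 0.939, fell in the highest quartile of all genes, in which 95.5% were marked in DMSO with a median −log10 p of 268. The lower replicate values of these 6 members, from 35.0 for Oat to 167 for Slc16a1, lay below that median. Ldha (0.769) and Igfbp4 (0.676) fell in the third quartile, whose median was 210. Hk1 (0.554) and Pdgfra (0.398) fell in the second, whose median was 123 and in which 47.5% of genes were marked. Of the genes with ratios from 0.3 to 0.4, the bin that holds Pdgfra, 32.3% were marked in DMSO.

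**Figure D4:**
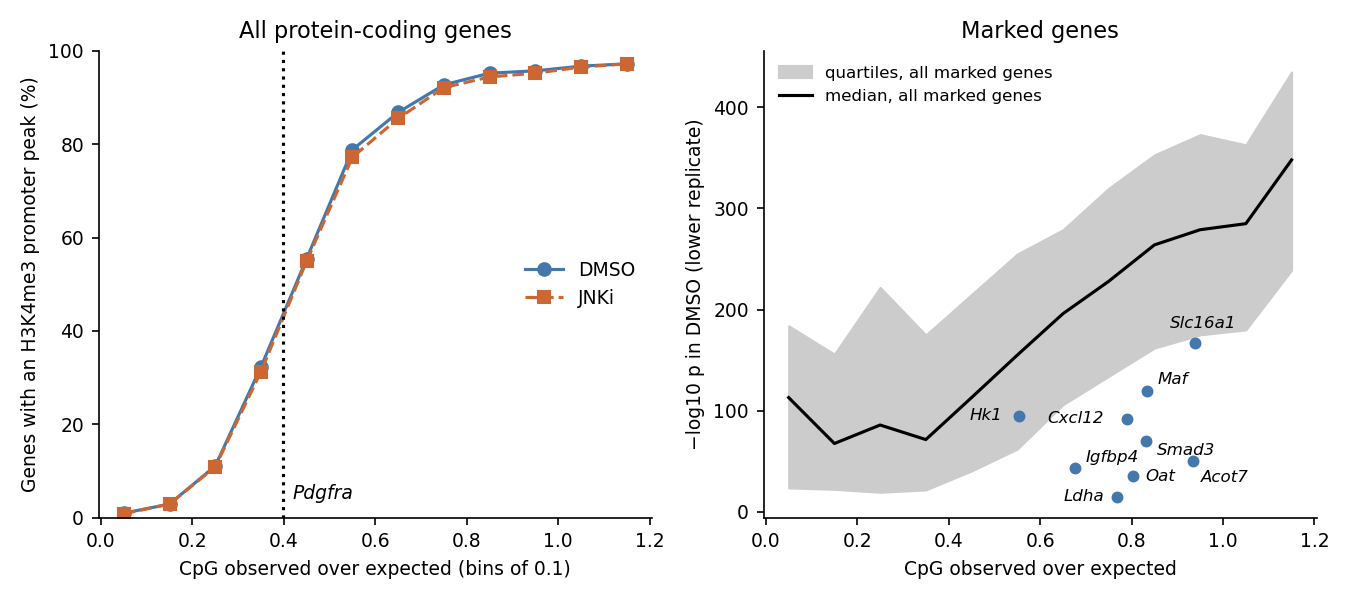
Left, share of protein-coding genes with an H3K4me3 promoter peak (y axis, %) by the observed over expected CpG ratio of the start (x axis, bins of 0.1), with DMSO in blue, JNKi in orange and Pdgfra as a dotted line. Right, −log10 p in DMSO (y axis, lower replicate) of the 9 marked members against that ratio, with the median and quartiles of all marked genes as line and band. The members lie below the median line at their own CpG content, and all except Hk1 lie below the band.

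Promoters of adjacent genes gave a comparison within each window. At 6 loci the DMSO list held 9 peaks at other genes' promoters, 6 of them higher than the member's own, and the JNKi list held 7, with 6 higher. Only neighbours with a peak were counted, and no share over all genes stands beside these counts. Since every marked member lay below the median of marked genes, the counts largely restate those percentiles and are no separate result. The peak over the shared promoter region of Hps5 and Gtf2h1, which flanks Ldha, had a −log10 p of 325 in its weaker DMSO replicate, 21.5 times the 15.1 of Ldha. The other DMSO replicate had 410 against 29.4, and by the weaker replicate the ratio in JNKi was 16.9. Top2a, a topoisomerase of dividing cells that lies beside Igfbp4, had 453 in DMSO and 576 in JNKi, where Igfbp4 had 43.3 and 23.7. Tspan15 had 355 beside Hk1 at 95, Icmt had 309 beside Acot7 at 50.1, and the region shared by Iqch and Aagab had 368 beside Smad3 at 70.4. Oat and its neighbour Lhpp were alike, at 35.0 and 35.3. Gpr153, whose promoter lies closest to the Acot7 gene body, was lower than Acot7 in both lists, at 48.1 in DMSO and at 45.5 in JNKi, where Acot7 had 84.9. Weak peaks at Espn near Acot7 and at the non-coding Gm16764 near Oat, with 6.36 and 7.87, were in the DMSO list only. Outside promoters, an intergenic peak 36720 bp downstream of the Slc16a1 start was the highest, at 78.5 and 54.6 in DMSO and 71.5 and 41.0 in JNKi. An intronic peak in Smad3 (chr9:63750486-63750935), at 12 and 12.7, was in the JNKi list only.

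cJun peaks were then counted around the members. In DMSO 4 of 10 members (Hk1, Acot7, Cxcl12 and Smad3) had a cJun peak within 50 kb, where 28.4% of all coding genes had one, and in JNKi Hk1 had one, where the share was 12.2%. Longer genes offer wider windows, and Hk1, Acot7, Smad3 and also Pdgfra, which had no cJun peak, belong to the longest quartile of genes, in which 36.3% had a DMSO cJun peak and 15.4% a JNKi peak. With 1 list per treatment these counts have no replicate error, and the DMSO cJun list was also the longer of the pair over the whole genome.

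**Figure D5:**
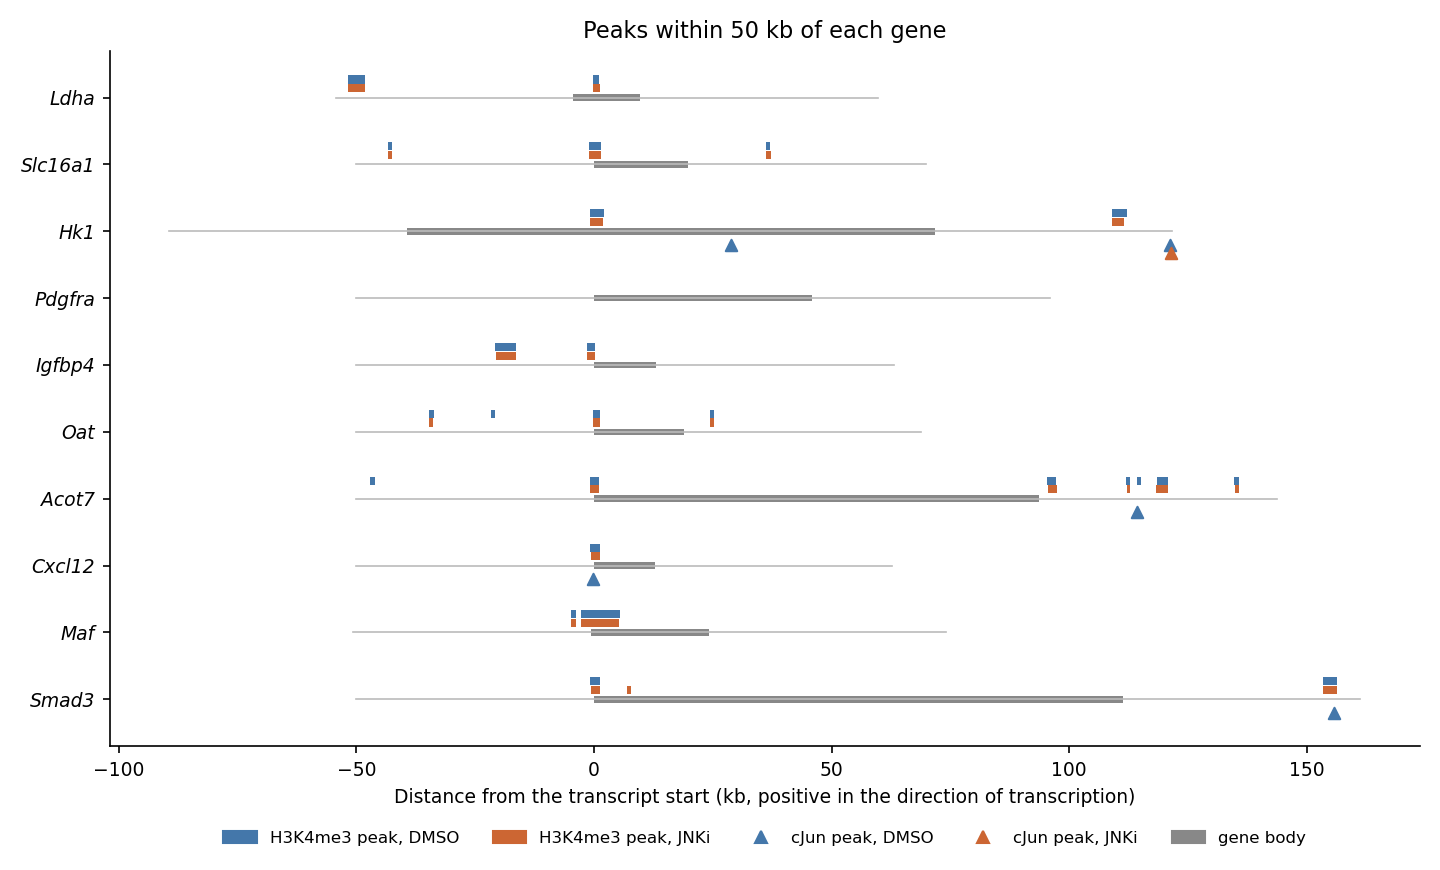
All peaks within 50 kb of the 10 members, as distance from the marked transcript start (x axis, kb, positive in the direction of transcription; the first annotated start for Pdgfra), with H3K4me3 peaks as bars above and cJun peaks as triangles below the gene body in grey, DMSO in blue and JNKi in orange. Narrow H3K4me3 bars are widened to stay visible. The window of Pdgfra is empty, and Hk1 is the only member with a cJun peak in JNKi.

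At Hk1, the strongest site lay past the 3′ end of the gene, at a distance of 48846 bp and in an intron of Tspan15. The DMSO peak at chr10:62218549-62220009 had a −log10 p of 19 and 21.6 and ranked 144 of 4960, with an IDR of 0.00605. The JNKi peak at chr10:62218690-62219625 lay inside it, with 14.9 and 16.3, and ranked 122 of 1632, with an IDR of 0.0147. It was the only cJun site in these windows that both lists held. A further DMSO peak in an intron of Hk1 itself (chr10:62311453-62311891) had 9.27 and 12.6 with an IDR of 0.177, and the JNKi list held none there.

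At Cxcl12, a DMSO cJun peak at chr6:117168112-117168758 lay on the promoter, within the H3K4me3 peak. It was weak, with a −log10 p of 4.13 and 7.90 near the list's minimum of 3.01, a rank of 4127 and an IDR of 0.729. A cJun peak at a start was found at 1 of 10 members and at 6.41% of all genes in DMSO, and at 0 members and 2.37% of all genes in JNKi.

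Near Smad3, a DMSO cJun peak at the promoter region of Iqch and Aagab (chr9:63602254-63602463) had 27 and 16.4 and ranked 204, with an IDR of 0.00566. It was 210 bp wide, and 2.22% of DMSO cJun peaks were under 220 bp. Near Acot7, a DMSO cJun peak of 216 bp (chr4:152292363-152292578) lay in intergenic sequence next to Hes3, with 6.86 and 10.5 and an IDR of 0.414. The DMSO H3K4me3 list held a peak of almost the same extent there (chr4:152292369-152292578), so that the same short interval was called with both antibodies. Whether these short intervals are binding sites was not tested.

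None of the 6 cJun peaks held an AP-1 site or a cyclic AMP response element, within 100 bp of the summit or anywhere in the peak. Over all cJun peaks, 10% in DMSO and 12.1% in JNKi had an AP-1 site within 100 bp of the summit, and 34.8% and 39.0% had either element somewhere in the peak. No cJun peak lay within 50 kb of Ldha, although its promoter holds the element shown above.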

How the data were processed

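CUT&RUN peak lists from Min6 cells were analysed, with 12 samples grouped by their labels. The authors aligned reads to GRCm38 with Bowtie2 2.4.2, called peaks with MACS2 2.2.7.1 and paired replicates with IDR. The 4 deposited lists have 20 columns and give, for each merged peak, a score derived from the IDR, the −log10 p-value and each replicate's interval and −log10 p, the lowest being 3.01. This minimum does not match the q-value cut-off of default peak calling that the methods describe, so the setting used is unknown and weak peaks may fall short of that cut-off. Deposited −log10 IDR values were converted to IDR. Per the file contents, the authors' signal column is a placeholder. The IgG libraries and read coverage were not analysed here.

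Coding genes of the autosomes and X chromosome came from GENCODE vM21 (basic), and promoters were windows of 500 bp around any start. The highest peak there represented a gene. Replicate widths and −log10 p were tested with limma 3.58.1 (R 4.3.3) and Benjamini-Hochberg adjustment over all genes. The limma step was tested on simulated data. CpG ratios and motifs were counted with Python 3.11.15 and pysam 0.24.0. All 10 members are named. The members and lists were chosen with earlier results of these data known. P-values measure only the spread between the replicate columns. Alternatives covered the IDR limit, windows, centring, left-out columns and measure. Some genes of the reference lists are not reported here by name.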

Additional observations from a re-analysis of the deposited data

How the results depend on the processing

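Over 27 results, 186 alternative values were computed. No member passed the threshold of the limma tests under any alternative. Of the single-gene values 122 kept their direction and 20 reversed. With median centring, the log2 width changes of Maf and Smad3 became -0.01. Without centring, which moved the median −log10 p change of all genes from -0.04 to 0.17 on the log2 scale, Hk1 became 0.05, Ldha 0.17 and Smad3 0.16, and by rank Ldha rose by 0.53 percentile points. Leaving out 1 replicate column at a time, which leaves a lone column assumed to vary like the others, gave width changes of -0.10 to 0.03 for Acot7, -0.18 to 0.04 for Cxcl12, -0.24 to 0.18 for Igfbp4, -0.34 to 0.21 for Oat, -0.09 to 0.02 for Slc16a1 and -0.16 to 0.18 for Smad3. The −log10 p changes were then -0.65 to 0.57 for Ldha, -0.26 to 0.31 for Oat and -0.29 to 0.19 for Smad3. The width change of Ldha stayed between 0.31 and 0.40 over all alternatives run, with limma adjusted p-values of 0.151 to 0.542.

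Over all genes, 165 widths passed, against 105 with an IDR of at most 0.05 and 0 by bases covered within 5 kb, where 983 had an unadjusted p under 0.05. Leaving out 1 column gave 0 to 25 widths, with 0 when either JNKi column was left out. By −log10 p, 11 genes passed, and 0 to 225 when 1 column was left out, with 0 without the second JNKi column. Their direction turned over, with 201 higher and 7 lower without the first DMSO column and 10 higher and 215 lower without the first JNKi column. The cause was not tested.

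Members with a cJun peak in DMSO, 4 at the settings used, were 2 at an IDR of at most 0.05 (4.22% of all coding genes), 2 at 0.01 (2.29%), 2 within 10 kb (15.2%), 5 within 100 kb (40.5%) and 3 for cJun peaks over H3K4me3 (22.4%). In JNKi the count of 1 became 0 at an IDR of at most 0.01 (1.28%), 0 within 10 kb (6.04%) and 0 for cJun peaks over H3K4me3 (9.29%), and stayed at 1 at an IDR of at most 0.05 (2.74%) and within 100 kb (19%). H3K4me3-marked members in DMSO were 8 at an IDR of at most 0.05, which leaves out Ldha, and 7 when only the 5′ end of the gene record was used, which leaves out Ldha and Hk1. The share of all coding genes marked at these settings is not given here, so these 2 counts hold no comparison with other genes. No paired analysis was possible because the replicate columns carry no replicate numbers.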
